A study of Mus musculus with 6 samples.

Results

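The PGC-1 coactivators, Perm1, the estrogen-related receptors (ERRs), the lipid-sensing receptors PPARα and PPARδ, NRF1 and TFAM were examined at the mRNA level in gastrocnemius (Gas) muscle of wild-type (WT) and miR-92b knockout (M92KO) mice. The 10 genes were listed by name, as parts of this network, by a choice made with earlier results of these data known: Ppargc1a, Ppargc1b, Perm1, Esrra, Esrrb, Esrrg, Ppara, Ppard, Nrf1 and Tfam. They are 10 of 34714 gene symbols in the count table, and all 10 were among the 15788 genes that passed the filter on low counts. RNA-seq was done on 3 WT and 3 M92KO libraries from untreated mice aged 8 weeks, with no other allele or agent named for either group. The M92KO mice carried a global, germline deletion of miR-92b on the C57BL/6JGpt background, so that the microRNA is lost from every cell type and from development onward, and the WT mice were C57BL/6. The labels give free access to chow, while the methods describe an overnight fast before tissue was taken. Which of these held for the sequenced muscles is not given in the sources used here.

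PGC-1α and PGC-1β do not bind DNA themselves. They dock on transcription factors, among them the ERRs, the PPARs and NRF1, and so raise the transcription of genes for oxidative phosphorylation, the citric acid cycle and fatty acid oxidation. NRF1 in turn drives genes such as Tfam, whose product coats and transcribes mitochondrial DNA, and Perm1 is a muscle protein that PGC-1 and ERR induce and that acts with them on oxidative genes. In skeletal muscle the network is best known for its link to endurance training and to oxidative fibres.

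The knockout removes 2 mature microRNAs that arise from one hairpin on the minus strand of chromosome 3. Their sequences are shown because they set which letters in a transcript could pair with them, and the capitals mark the seed, bases 2 to 8 (RefSeq, GRCm38.p6, chr3:89227126-89227147 for the 3p arm and chr3:89227165-89227188 for the 5p arm).
miR-92b-3p: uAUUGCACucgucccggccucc
miR-92b-5p: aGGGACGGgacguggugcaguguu
Of the 10 genes, 4 held a 7-base seed match in an annotated 3′-UTR, either the complement of bases 2 to 8 or that of bases 2 to 7 followed by A. The matched stretches are printed on the gene's strand (GRCm38, GENCODE), with the match in capitals.
Ppargc1a, miR-92b-3p, chr5:51456691-51456697, minus strand: aaccacttcTGCAATAtttttcca
Esrrg, miR-92b-3p, chr1:188212059-188212065, plus strand: attcattcaTGCAATActagagag
Nrf1, miR-92b-3p, chr6:30140614-30140620, plus strand: agaggtcacTGCAATAcgtcagtg
Nrf1, miR-92b-3p, chr6:30151741-30151747, plus strand: tttgcagagGTGCAATcaaatgga
Esrra, miR-92b-5p, chr19:6911313-6911319, minus strand: gcaaaggccCCGTCCCttcgctcc
The Esrrg match lay in all 3 transcripts with an annotated 3′-UTR, the Ppargc1a match in 1 of 2, and the Nrf1 matches in 1 and 4 of 11. Among 13671 tested genes, 13.8% held a match to the 3p seed and 5.56% a match to the 5p seed in their longest 3′-UTR, where 3 of 10 members held a 3p match and 1 of 10 a 5p match. The other 6 members held none of these letters there. A match is a description of sequence and was not tested as a binding site.

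The libraries held between 33160508 and 48209846 counts, so that 3 counts corresponded to at most 0.0916 CPM, the count scaled to library size. Levels are given in CPM after TMM scaling, and genotypes were compared with edgeR's quasi-likelihood test with Benjamini-Hochberg adjustment over all 15788 genes. With all 6 libraries no gene passed an adjusted p of 0.05 in edgeR, against 1955 genes (12.4%) at an unadjusted p under 0.05, of which 863 were higher and 1092 lower in M92KO, and DESeq2 called 312 (1.98%) at an adjusted p under 0.05. Skeletal actin (Acta1) stood at 25646 to 27457 CPM in every library. Of 5 heart genes, Myl7 and Nppb were at or under 3 counts in all libraries. The 5 together summed to 4.29 to 6.99 CPM in WT and 4.34 to 6.51 CPM in M92KO. The library M92KO 1 stood apart from the other M92KO libraries on the second principal component (37.7 against -16.1 and -13), so results are given with and without it. Separate animals per library are implied by the labels but pooling is not described. The p-values set a difference between genotypes against the spread between these libraries, which edgeR estimates in part across genes.

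Of the 10 regulators, 1 (Perm1) was higher in M92KO at an unadjusted p under 0.05, beside 5.47% of all tested genes in that direction, and 0 passed the adjusted threshold in edgeR (0% of all genes) or in DESeq2. Perm1 differed by 0.34 on the log2 scale. The estimates for 9 of 10 members lay above 0, as they did for 50.0% of all genes, and their median log2 fold change was 0.11 against 0.00 over all genes. In no member did the M92KO and WT values fail to overlap, which happened in 18.4% of all genes.

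**Figure D1:**
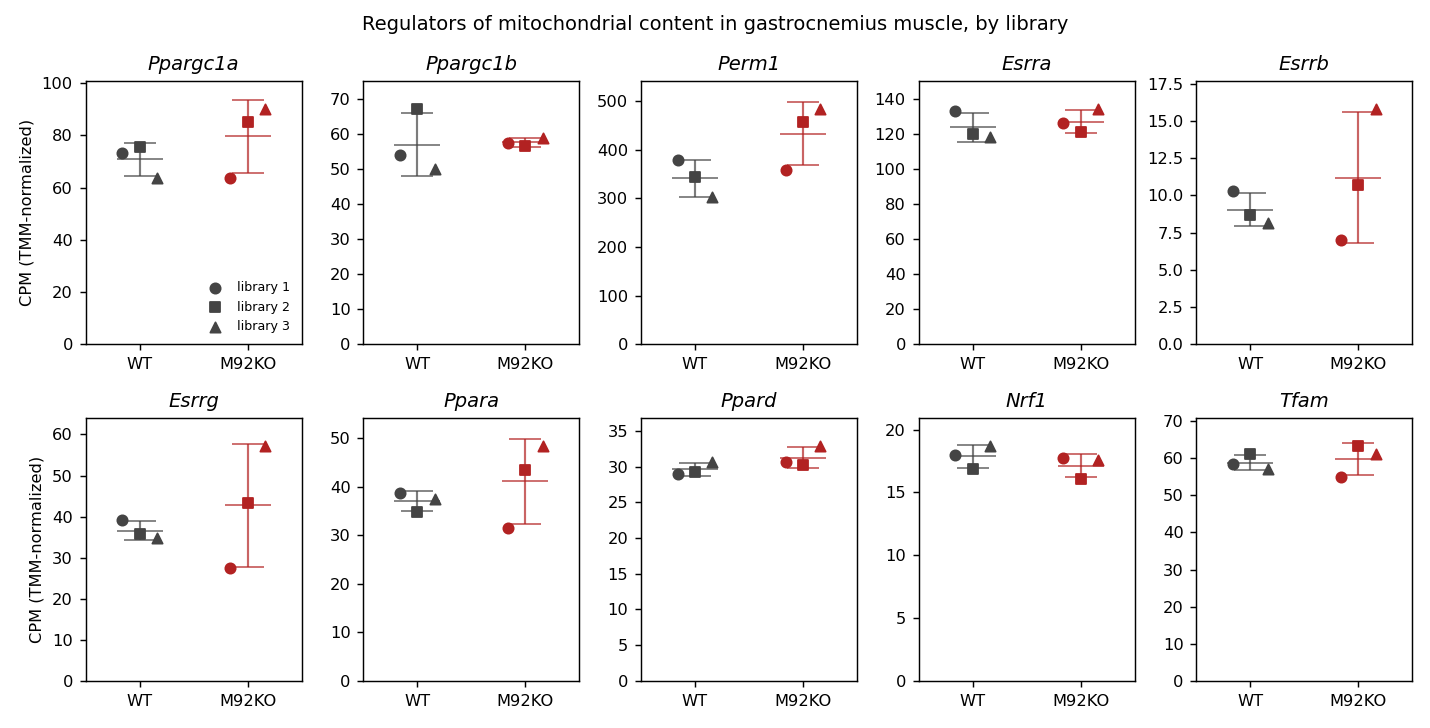
TMM-normalized CPM (y axis, from 0) of each regulator in the 3 WT libraries (grey) and the 3 M92KO libraries (red), with the mean (long bar) and SD (whiskers); marker shape gives the library number. Values of the genotypes overlap in all 10 panels, and the M92KO points spread widest for Esrrb and Esrrg.

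Of the coactivators, Ppargc1a, which encodes PGC-1α, was read at 73.3, 75.7 and 63.7 CPM in WT and at 63.8, 85.3 and 90.0 CPM in M92KO. Both M92KO 2 and M92KO 3 lay above every WT library, while M92KO 1 lay within the WT range. The means were 70.9 ± 6.37 and 79.7 ± 14.0 CPM (SD, n = 3 each), a log2 fold change of 0.17 (SE 0.13, 95% interval -0.13 to 0.46, edgeR adjusted p = 0.657), which is not larger than the spread between libraries. Gene counts do not separate the PGC-1α isoforms that start from different promoters.

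Ppargc1b, which encodes PGC-1β, was read at 53.9, 67.1 and 49.9 CPM in WT and at 57.4, 56.6 and 59.0 CPM in M92KO. The 3 M92KO values were tightly grouped and fell inside the WT range. The log2 fold change was 0.02 (SE 0.11, 95% interval -0.23 to 0.26, edgeR adjusted p = 0.965).

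Perm1 (ENSMUSG00000078486, GRCm38 chr4:156215868-156221307, plus strand) was read at 378, 344 and 302 CPM in WT and at 359, 457 and 483 CPM in M92KO. Again M92KO 2 and M92KO 3 lay above every WT library and M92KO 1 lay among them. The means were 341 ± 37.7 and 433 ± 65.6 CPM (SD, n = 3 each), a log2 fold change of 0.34 (SE 0.13, 95% interval 0.06 to 0.63). The unadjusted p was 0.024 and the adjusted p was 0.336 in edgeR and 0.164 in DESeq2, with 0.0442 to 0.866 over the alternatives. The exact two-sided permutation test on Perm1 alone gave p = 0.2, where 3 against 3 libraries cannot go below 0.1. The promoter of Perm1 is printed in part because it was the only one of the members' promoters that held the ERR half-site AAGGTCA, searched on both strands from 250 bases before to 50 after the RefSeq start. The stretch below is on the gene's strand and its capitals mark the half-site, which reads TGACCTT because it lies on the opposite strand, 202 bases before the start (GRCm38.p6, chr4:156215725-156215731).
Perm1 promoter: aatccggtgTGACCTTagctaatgc
That half-site occurred in 4.72% of 32851 promoters of the same length. The cyclic AMP response element TGACGTCA (1.79% of promoters), searched in the same way, was in none of the stretches searched for the members. Only 1 start of Ppargc1a was covered and no promoter of Ppargc1b was searched. Other starts and sequence outside that window were not searched for either motif.

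Of the ERRs, which bind the half-site as orphan receptors without a known natural ligand, Esrra (ERRα) was read at 133, 120 and 118 CPM in WT and at 126, 121 and 134 CPM in M92KO. Its genotypes overlapped almost fully, with a log2 fold change of 0.04 (SE 0.074, 95% interval -0.13 to 0.21). Of its exon bases 3.74% overlap Trmt112 or Mir6990, and the strand setting of the counting is not given, so a small part of these reads cannot be assigned with certainty. No exon base of the other 9 members overlaps another annotated gene.

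Esrrg (ERRγ, the family member best known for oxidative muscle) was read at 39.1, 35.8 and 34.9 CPM in WT and at 27.5, 43.4 and 57.2 CPM in M92KO. The 3 WT values were close together, whereas M92KO 1 was the lowest and M92KO 3 the highest of the 6 libraries. The log2 fold change was 0.22 (SE 0.22, 95% interval -0.27 to 0.72, edgeR adjusted p = 0.733).

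Esrrb (ERRβ) followed the same order at a lower level, with 10.3, 8.67 and 8.17 CPM in WT and 7.03, 10.7 and 15.8 CPM in M92KO. The log2 fold change was 0.31 (SE 0.25, 95% interval -0.27 to 0.88, edgeR adjusted p = 0.687). For both genes the interval is wide enough to hold a decrease or an increase.

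Of the PPARs, which bind DNA with a retinoid X receptor and answer to fatty acids, Ppara was read at 38.8, 34.8 and 37.4 CPM in WT and at 31.4, 43.5 and 48.4 CPM in M92KO. M92KO 1 lay below, and the other M92KO libraries above, all WT libraries. The log2 fold change was 0.15 (SE 0.14, 95% interval -0.17 to 0.48, edgeR adjusted p = 0.724).

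Ppard was read at 29.0, 29.3 and 30.7 CPM in WT and at 30.6, 30.2 and 32.9 CPM in M92KO. These values were among the most even of the set, with a log2 fold change of 0.07 (SE 0.069, 95% interval -0.08 to 0.23, edgeR adjusted p = 0.722).

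Nrf1, for the nuclear respiratory factor, was read at 18.0, 16.9 and 18.7 CPM in WT and at 17.7, 16.1 and 17.6 CPM in M92KO. Its log2 fold change of -0.06 (SE 0.084, 95% interval -0.25 to 0.13) was the one estimate below 0 among the members. Tfam was read at 58.3, 61.2 and 57 CPM in WT and at 55.0, 63.3 and 61.1 CPM in M92KO, a log2 fold change of 0.02 (SE 0.074, 95% interval -0.15 to 0.19). For both genes the interval holds no difference beyond 0.25 on the log2 scale in either direction.

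Across the 3 M92KO libraries 5 members (Ppargc1a, Perm1, Esrrb, Esrrg and Ppara) shared one order, with M92KO 1 lowest and M92KO 3 highest, an order found in 18.6% of all tested genes. On the log2 scale the range over the M92KO libraries was 1.16 for Esrrb, 1.06 for Esrrg, 0.62 for Ppara, 0.50 for Ppargc1a and 0.43 for Perm1, against a median of 0.31 over all genes. The other members lay below that median, at 0.20 for Tfam, 0.15 for Esrra, 0.13 for Nrf1, 0.12 for Ppard and 0.06 for Ppargc1b. The M92KO range was wider than the WT range in 7 of 10 members and in 67.2% of all genes. Myh2, the myosin of fast oxidative type IIa fibres, had the same order, with 2124, 2239 and 1612 CPM in WT and 2018, 3575 and 4099 CPM in M92KO. Its log2 fold change was 0.70 (SE 0.242, edgeR unadjusted p = 0.0189, adjusted p = 0.314), and 0.95 without M92KO 1 (adjusted p = 0.017). The study measured fibre markers by qPCR in Gas muscle of both genotypes, among them Myh2, Ppargc1a and Ppargc1b. It reported that fibre-type genes did not differ. Of the short list that Myh2 leads, Actn2 (a Z-disc actinin) had a log2 fold change of 0.64 (adjusted p = 0.287 in edgeR and 0.0337 in DESeq2). Without M92KO 1 the value for Actn2 was 0.87 (edgeR adjusted p = 0.00602). With all libraries 2 of 3 genes of the list were higher at an unadjusted p under 0.05, beside 5.47% of all genes. Pvalb, a calcium buffer of fast fibres, lay on the other side, at -0.11 with all libraries (edgeR adjusted p = 0.828) and -0.29 without M92KO 1 (adjusted p = 0.238). The list summed to 10767 to 12146 CPM in WT and 12455 to 12896 CPM in M92KO, of which Pvalb alone made up 6630 to 9442 CPM. Of the 10 slow fibre genes 0 were higher and 1 lower, with summed levels of 311 to 438 CPM in WT and 241 to 392 CPM in M92KO. Fast glycolytic genes summed to 87102 to 101756 CPM in WT and 85769 to 102612 CPM in M92KO, with 0 of 8 past that p. In bulk muscle, more fibres of a type and more RNA per fibre cannot be told apart, and the part of fibre type in the members' order was not tested.

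**Figure D2:**
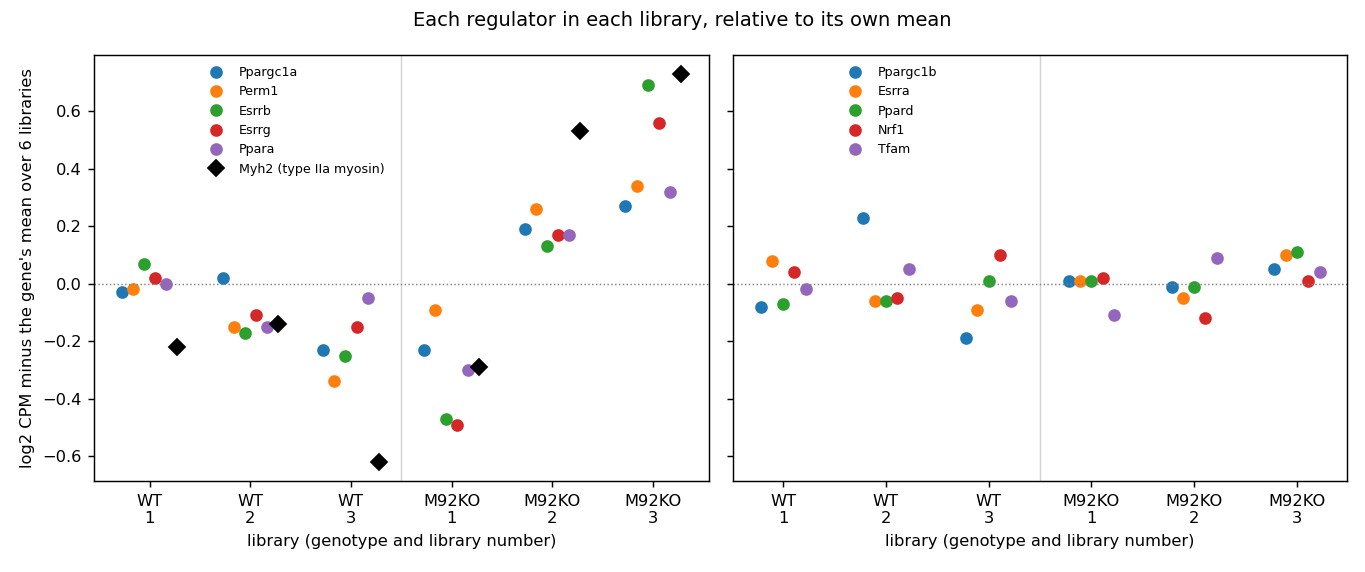
Log2(CPM + 0.1) of each member minus its own mean over the 6 libraries (y axis), for each library (x axis); the left panel holds the 5 members with M92KO 1 lowest and M92KO 3 highest, plus Myh2 (black diamonds), and the right panel the other 5. On the left M92KO 2 and M92KO 3 lie above 0 and M92KO 1 below it, and on the right every point lies between -0.19 and 0.23.

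Without M92KO 1, which left 2 M92KO libraries against 3 WT, 5 of 10 members were higher in M92KO at an unadjusted p under 0.05, beside 9.62% of all genes tested in that subset. They were the same 5 genes. In each of them M92KO 1 was the lowest M92KO library, so leaving it out raises the estimate by construction. The match of the 5 genes is therefore no independent support for a difference. The library was left out because it stood apart over all genes. Perm1 passed the adjusted threshold, with a log2 fold change of 0.46 (95% interval 0.26 to 0.67, edgeR adjusted p = 0.0442, and 0.0442 to 0.684 over the 6 fits with 1 library removed), as did 2.50% of all genes, and 1.81% in the higher direction. The estimates for 9 of 10 members lay above 0 there, beside 47.8% of all genes. The other 4 did not pass it, with log2 fold changes of 0.31 for Ppargc1a (adjusted p = 0.094), 0.55 for Esrrb (0.152), 0.46 for Esrrg (0.0819) and 0.31 for Ppara (0.0758). Ppargc1b, Esrra, Ppard, Nrf1 and Tfam stayed between -0.08 and 0.09. Leaving out M92KO 3 instead gave 0 members at an unadjusted p under 0.05 and log2 fold changes of 0.07 for Ppargc1a, 0.26 for Perm1, -0.03 for Esrrb, -0.05 for Esrrg and 0.02 for Ppara. The estimates for these 5 genes thus turn on which M92KO libraries are counted, and for Esrrb and Esrrg so does their sign.

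**Figure D3:**
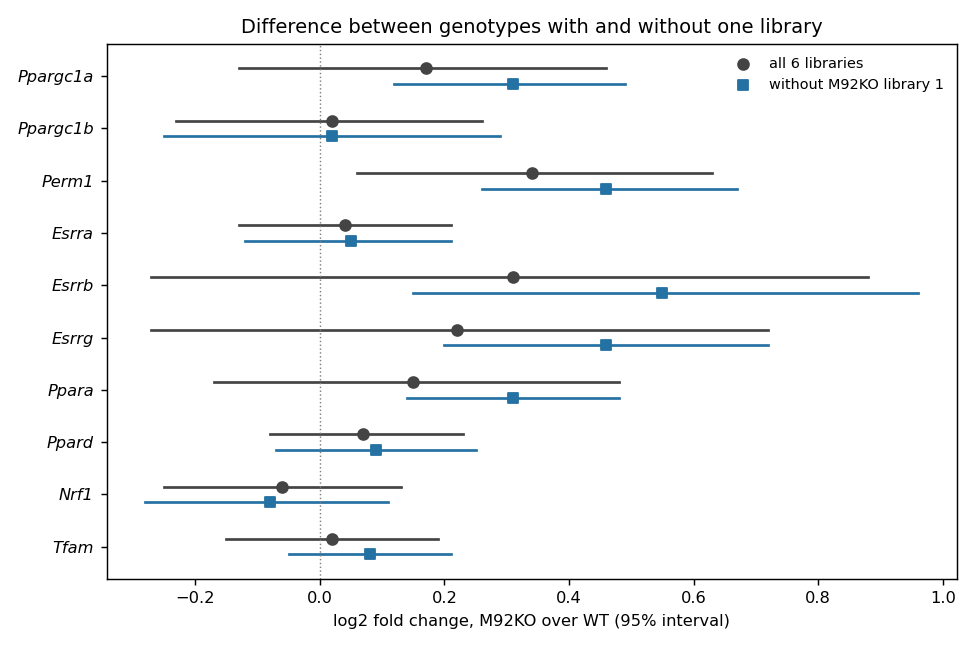
Log2 fold change of each member, M92KO over WT (x axis), with its 95% interval, from all 6 libraries (grey circles) and without M92KO 1 (blue squares). With all libraries the interval of Perm1 alone lies above 0; without M92KO 1 those of Ppargc1a, Perm1, Esrrb, Esrrg and Ppara do.

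Per length, as CPM per kilobase of merged exons over the 6 libraries, Perm1 was the most abundant of the set at 99.3 (77.5 to 124), followed by Esrra at 28.6 (26.9 to 30.6). Ppargc1b (14.4), Tfam (13.4), Ppargc1a (11.4), Ppara (10.2) and Esrrg (6.39) formed a run in which each gene's range overlapped that of the next. Ppard (4.05) lay below Esrrg and above Nrf1 (1.7) without overlap, and Nrf1 overlapped Esrrb (1.67). Among the ERRs the order was thus Esrra, Esrrg, Esrrb, in WT as in M92KO. Counted against the longest transcript, only Esrrg and Ppard changed places.

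Genes whose centred log2 levels lay nearest to those of Ppargc1a over the 6 libraries, out of 8744 with a mean of at least 10 CPM, were Lmod3, Hibch, 1700025G04Rik, Bmpr2 and Tspan12, at root mean square distances of 0.037 to 0.047. Lmod3 encodes an actin nucleator of muscle thin filaments and Hibch an enzyme of valine breakdown. Perm1 ranked 364 and Ppara 420 by that measure. Among the nearest to Perm1 were Rras2, Nfe2l1, Fxyd5 and Lrrc2, at 0.052 to 0.054, and Ppargc1a ranked 98. With 6 libraries these distances describe the libraries and are not tests.

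Of 29 partners and upstream regulators of the network (coactivators, corepressors, retinoid X receptors, CREB and MEF2 factors and others), 4 were lower in M92KO at an unadjusted p under 0.05 and 0 higher, beside 6.92% of all genes lower, and the median log2 fold change was -0.03. The count of lower genes was 2 without WT 3 and 2 without M92KO 3, and without M92KO 1 it was 4, with 3 genes higher. Pprc1, which encodes the PGC-1-related coactivator and is the remaining relative of the PGC-1 genes, was read at 27.0, 24.1 and 24.5 CPM in WT and at 19.2, 19.1 and 19.9 CPM in M92KO. Every M92KO library lay below every WT library, a log2 fold change of -0.37 (SE 0.078, 95% interval -0.55 to -0.20). Its adjusted p was 0.179 in edgeR and 0.0208 in DESeq2, with 0.0208 to 0.555 over the alternatives, and its unadjusted p stayed under 0.05 in each of the 6 fits with 1 library removed. Nfe2l2, for the antioxidant factor NRF2, was likewise lower in every M92KO library, at 54.0 to 61.7 against 68.2 to 73.5 CPM (log2 fold change -0.30, SE 0.073, edgeR adjusted p = 0.195). Creb1, which activates the Ppargc1a promoter, had a log2 fold change of -0.19 (edgeR adjusted p = 0.373), with no overlap of the groups, but an unadjusted p under 0.05 in only 1 of those 6 fits. Pparg, the adipogenic PPAR, had a log2 fold change of -0.55 (edgeR adjusted p = 0.328) at 5.3 to 10.6 CPM. WT 3 was its highest library, without which the value was -0.32, and its unadjusted p was under 0.05 in 3 of the 6 fits with 1 library removed and not under the limma steps. Adiponectin (Adipoq), a fat cell marker, lay between 0.673 and 2.05 CPM, Ucp1 had no count in any library, and fat cell genes as a list summed to 558 to 632 CPM in WT and 611 to 651 CPM in M92KO, with 0 of 8 tested past an unadjusted p of 0.05. Of the fibroblast genes 3 of 8 were lower at that p, with summed levels of 1838 to 2409 CPM in WT and 1232 to 1746 CPM in M92KO, and the part of fat cells and fibroblasts in the values of Pparg and Nfe2l2 was not tested.

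Of 15 genes listed for the transcription, replication and upkeep of mitochondrial DNA, 0 passed an unadjusted p of 0.05 in edgeR or DESeq2. In edgeR 12.4% of all genes passed it in either direction. The smallest p belonged to Mterf4, a factor of the mitochondrial ribosome, at 8.03 to 9.66 CPM in WT and 10.2 to 10.9 CPM in M92KO (log2 fold change 0.24, edgeR adjusted p = 0.41), and the next to Top1mt, the mitochondrial topoisomerase (0.14, adjusted p = 0.627, and 0.07 without M92KO 1). The count past that p was 1 higher with GC and length offsets, without WT 3 or without M92KO 1, and 1 higher and 1 lower with the limma steps. The 13 proteins encoded by mitochondrial DNA were not analysed here.

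Of 36 target genes of the ERRs and PGC-1, mostly subunits of the respiratory chain and enzymes of the citric acid cycle, 2 were higher in M92KO at an unadjusted p under 0.05 and 0 lower, close to the 5.47% of all genes that were higher, with a median log2 fold change of 0.00. Vegfa, the angiogenic factor, was read at 788, 815 and 717 CPM in WT and at 1072, 874 and 908 CPM in M92KO (log2 fold change 0.30, SE 0.098, edgeR adjusted p = 0.287). Cox6a2, the muscle form of a cytochrome c oxidase subunit, was read at 540, 529 and 521 CPM in WT and at 675, 569 and 594 CPM in M92KO (0.21, SE 0.082, adjusted p = 0.361, and 0.13 without M92KO 1). For both, every M92KO library lay above every WT library, as for 8.77% of all genes, and the highest value was that of M92KO 1. In that library Perm1, Ppargc1a and the ERRs Esrrb and Esrrg were lowest among M92KO. A link between the levels of the regulators and those of Vegfa and Cox6a2 was not tested. Without M92KO 1 the list held 5 higher and 0 lower at that p, beside 9.62% of all genes higher in that subset. It held 0 higher without WT 3, 1 higher without WT 1, without WT 2 or with the replicate block, 2 higher and 1 lower without M92KO 3, and 0 higher and 1 lower with the limma steps.

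Of 24 PPAR target genes, which serve fatty acid uptake, activation and oxidation, 10 were lower in M92KO at an unadjusted p under 0.05 and 0 higher, beside 6.92% of all genes lower. Their median log2 fold change was -0.15, 3 of 24 lay above 0, and 8 had every M92KO library below every WT library, beside 9.58% of all genes. No gene of the list passed the adjusted threshold in edgeR, and 2 (Cpt1a and Acot2) passed it in DESeq2. The count was 5 to 12 over the fits with 1 library removed, with 5 when either WT 2 or M92KO 2 was left out and 12 without M92KO 1, where 2 genes were higher, beside 8.96% of all genes lower in that subset, and it was 5 with the limma steps. Genes of this list are known to answer to fasting, and the feeding state of the mice at collection, which is not given in the sources used here, was not tested.

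**Figure D4:**
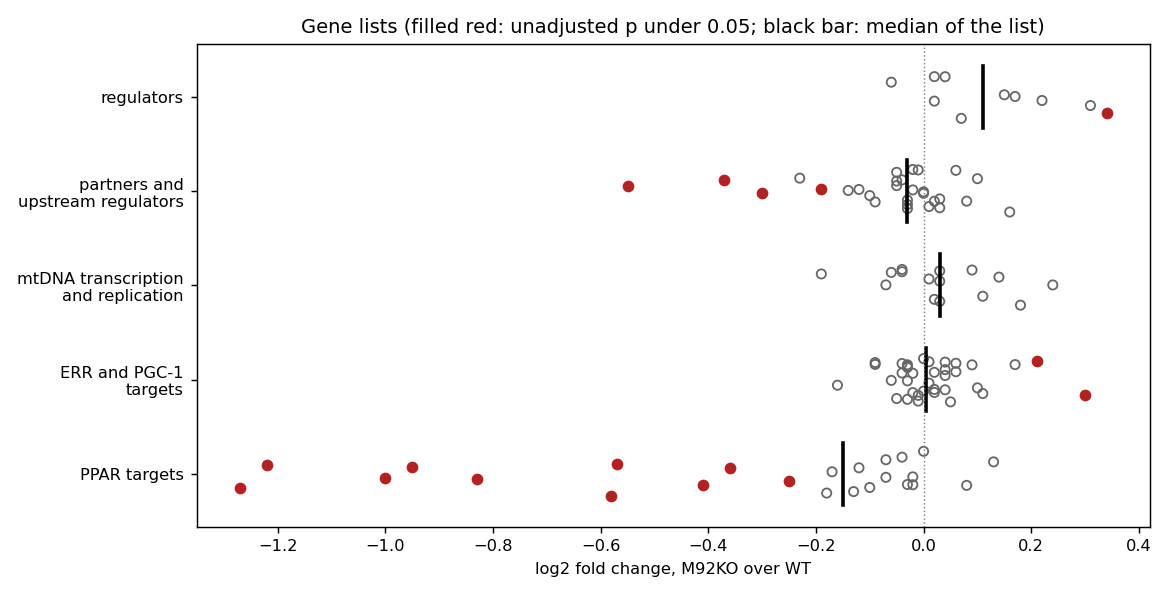
Log2 fold change, M92KO over WT (x axis), of each gene in the 5 lists (y axis, points spread vertically for visibility); filled red points had an unadjusted edgeR p under 0.05 and black bars are list medians. The medians are 0.11 for the regulators, -0.03, 0.03 and 0.00 for the next lists and -0.15 for the PPAR targets, where the 10 filled points all lie below 0.

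Pdk4, the kinase that shuts off pyruvate dehydrogenase, was read at 864, 1775 and 1251 CPM in WT and at 754, 481 and 435 CPM in M92KO. WT 2 was the highest, and M92KO 1 came closest to the WT libraries. The log2 fold change was -1.22 (SE 0.28, 95% interval -1.85 to -0.59, edgeR adjusted p = 0.179, with 0.0332 to 0.634 over the alternatives).

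Cpt1a, the carnitine acyltransferase that admits fatty acids to mitochondria, was read at 22.0, 31.6 and 25.0 CPM in WT and at 18.5, 18.8 and 15.5 CPM in M92KO. Its log2 fold change was -0.58 (SE 0.14, adjusted p = 0.192 in edgeR and 0.0137 in DESeq2, with 0.0137 to 0.64 over the alternatives). Acot2, a mitochondrial acyl-CoA thioesterase, was at 20.3 to 28.2 CPM in WT and 14.1 to 17.0 CPM in M92KO (-0.57, SE 0.14, adjusted p = 0.188 in edgeR and 0.014 in DESeq2, with 0.014 to 0.648 over the alternatives). Reads of Acot2 and its near-identical neighbour Acot1 may be shared, since how multiply mapped reads were counted is not given.

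Ucp3, the muscle uncoupling protein, was read at 201, 417 and 384 CPM in WT and at 223, 146 and 133 CPM in M92KO, so that WT 1 and M92KO 1 overlapped (log2 fold change -1.0, SE 0.28, edgeR adjusted p = 0.237). Slc27a1, a fatty acid transporter, was at 94.3 to 120 CPM in M92KO and 124 to 166 CPM in WT (-0.41, SE 0.13, adjusted p = 0.281, and -0.27 without WT 2). The median log2 fold change of the 24 targets was -0.15. With all libraries the estimates were 0.15 for Ppara and 0.07 for Ppard, and both intervals held 0. Without M92KO 1 the interval of Ppara lay above 0 (0.14 to 0.48) and that of Ppard held 0 (-0.07 to 0.25). A link between the receptors' levels and those of the targets was not tested.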

How the data were processed

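The authors deposited one table of raw read counts per gene symbol for 3 WT and 3 M92KO libraries, prepared with a SMARTer mRNA-Seq kit from total RNA. The submitters' processing notes name GRCm38 (mm10). The aligner, counter and strand setting are not given in the sources used here. Symbols were matched to GENCODE M21 for positions and lengths. Genes were kept by filterByExpr (minimum count 10, minimum total 15), scaled by TMM and tested with edgeR 4.0.16 (quasi-likelihood, genotype as the only term) and adjusted over 15788 genes. Intervals are 95%. Single values were also tested by exact two-sided permutation of log2(CPM + 0.1), which with 3 against 3 libraries cannot give less than 0.1. Alternatives were DESeq2 1.42.0, its size factors in edgeR, no filter or a stricter one, GC and length offsets, the limma 3.58.1 steps of the study's methods, a replicate block, and leaving out each library. The edgeR filter, scaling and test were tried on simulated counts, drawn without an outlying library. The alternatives were not tried in that way. Named genes were all 10 members, up to 6 genes per list at an unadjusted p under 0.05 by smallest p (otherwise 2), and the 5 genes nearest to Ppargc1a and to Perm1, of which 2 genes are not reported here. Members and lists were chosen with earlier results of these data known.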

Additional observations from a re-analysis of the deposited data

How the results depend on the processing

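Over the 8 alternatives that kept all libraries, the 10 members gave 80 log2 fold changes, of which 78 kept direction and side of an unadjusted p of 0.05, 2 were no longer past it (Perm1 with the limma steps and with the replicate block) and 0 reversed. The count of members at that p was 0 with the limma steps and 0 with the replicate block, against 1. Same-numbered libraries correlated at 0.0806, 0.0376 and 0.0151 in their deviations from group means, each under 0.1, and the main fit did not pair them. Of 6 libraries 5 correlated best with their own number, by margins as small as 0.0376 against 0.0365 and 0.0151 against 0.0107. These deviations are not independent within a group, so they cannot decide whether the libraries were paired, and the design names no pairs. Genes past an adjusted p of 0.05 numbered 312 in DESeq2, 6 with no filter, 42 with the limma steps, and 2 with the replicate block, with or without GC and length offsets, against 0. The limma steps also turned the split of unadjusted calls, to 1244 higher and 1043 lower from 863 and 1092, and gave 5 lower PPAR targets against 10. Removing 1 library at a time, 0 to 401 genes passed the adjusted threshold, 1222 to 2984 genes and 0 to 5 members an unadjusted p of 0.05. The highest of each came without M92KO 1, and the member count was 0 without M92KO 2, M92KO 3, WT 2 or WT 3. Signs reversed for Ppargc1b without WT 1 (-0.02) or WT 3 (-0.07, up to 0.15 without WT 2), for Esrrb (-0.03, up to 0.55) and Esrrg (-0.05, up to 0.46) without M92KO 3, and for Tfam without M92KO 2 (-0.02, up to 0.08), the upper values of the last 3 being without M92KO 1. The causes were not tested. Depth was not limiting for the members, each with at least 244 counts per library, whereas 3 libraries a group limit the intervals.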
